A study of Homo sapiens with 24 samples.

Results

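The genes described here are 40 listed ER chaperones and unfolded protein response genes, followed in A549 and H1975, 2 established human lung adenocarcinoma cell lines. They were chosen by name: a probe was taken if its gene name on the array is in the list, and where a gene has several probes the brightest was used. All 40 of the 25992 gene names on the array that are in the list had a probe among the 23827 probes tested, a probe being tested where it was well above background in every replicate of some group. ERO1L and ERO1LB are the array's names for ERO1A and ERO1B. Cells of each line received 0.75 mg/ml Pirfenidone, an antifibrotic pyridone drug, or an equal volume of PBS, the solvent, and RNA was taken after 6 h or 24 h. This gives 8 groups of 3 samples and 24 one-color arrays. The groups are A549 with PBS at 6 h, A549 with Pirfenidone at 6 h, A549 with PBS at 24 h, A549 with Pirfenidone at 24 h and the same 4 groups of H1975. The dose is the one in the labels, and the study names a higher one for its A549 transcriptome data. The labels do not say whether the 3 samples of a group were separate cultures. The methods speak of independent experiments for the data of the study in general, without naming the arrays, and the p-values measure the spread between these samples.

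The endoplasmic reticulum (ER) folds membrane and secreted proteins with the help of chaperones, disulfide isomerases and lectins, and sends misfolded proteins to the proteasome by ER-associated degradation (ERAD). When unfolded proteins build up, the sensors IRE1 (gene ERN1), ATF6 and PERK (gene EIF2AK3) start the unfolded protein response. IRE1 splices the XBP1 mRNA, ATF6 is cut to a transcription factor, and PERK phosphorylates a translation initiation factor, which lowers protein synthesis and raises ATF4. The first 2 arms act on genes of chaperones and ERAD through promoter elements called ER stress response elements. The probes measure total mRNA of each gene and not splicing, cleavage or phosphorylation.

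Values below are log2 signals set relative to the 75th percentile of the same array, so a level compares samples for 1 probe and not 1 gene with another. The share of the 34127 probes well above background ran from 62.7% to 69.5% across the arrays, and saturation was marked for 0 probes. Of the 40 genes, 38 were well above background on all 24 arrays, ERN1 on 19 and ERO1LB on 15. The epithelial markers EPCAM, KRT8, KRT18, KRT19 and CDH1 were above background on all 24 arrays. Of 4 blood and endothelial markers CD34 was above background on 0 arrays, PECAM1 on 0 of A549 and 12 of H1975, PTPRC on 12 of A549 and 11 of H1975, and CDH5 on all 24, and none of the 3 that were tested passed in a drug comparison.

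Promoter sequences are shown for 4 members picked from those that rose in a drug comparison, and 3 of these windows hold the classical stress elements. RefSeq promoter windows (GRCh38.p14, 250 bases before to 50 bases after the start) were matched for 36 of the 40 members. Printed are the 250 bases before the start, 5′ to 3′ on the strand of the gene, with ER stress response elements in capitals. The first element searched, ERSE, is CCAAT, 9 bases of any kind and CCACG, and the next, ERSE-II, is ATTGG, 1 base of any kind and CCACG, on both strands. The windows are chr22:28800570-28800819 on the minus strand for XBP1, chr9:125241344-125241593 on the minus strand for HSPA5, chr16:56931892-56932141 on the plus strand for HERPUD1 and chr7:108569624-108569873 on the plus strand for DNAJB9.
XBP1: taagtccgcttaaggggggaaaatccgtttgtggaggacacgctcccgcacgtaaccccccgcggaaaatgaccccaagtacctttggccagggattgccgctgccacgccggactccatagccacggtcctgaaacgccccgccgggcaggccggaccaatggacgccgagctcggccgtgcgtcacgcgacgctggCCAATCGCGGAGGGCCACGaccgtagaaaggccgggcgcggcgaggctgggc
HSPA5: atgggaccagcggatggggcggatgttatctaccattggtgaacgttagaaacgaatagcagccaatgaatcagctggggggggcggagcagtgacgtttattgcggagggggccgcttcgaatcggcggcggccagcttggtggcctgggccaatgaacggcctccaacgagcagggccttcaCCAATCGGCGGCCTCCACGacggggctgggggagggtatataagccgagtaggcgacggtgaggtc
HERPUD1: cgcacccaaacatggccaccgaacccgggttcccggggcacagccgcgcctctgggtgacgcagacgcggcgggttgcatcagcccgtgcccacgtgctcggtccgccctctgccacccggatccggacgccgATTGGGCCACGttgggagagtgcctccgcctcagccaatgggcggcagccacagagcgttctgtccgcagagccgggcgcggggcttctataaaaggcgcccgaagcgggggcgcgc
DNAJB9: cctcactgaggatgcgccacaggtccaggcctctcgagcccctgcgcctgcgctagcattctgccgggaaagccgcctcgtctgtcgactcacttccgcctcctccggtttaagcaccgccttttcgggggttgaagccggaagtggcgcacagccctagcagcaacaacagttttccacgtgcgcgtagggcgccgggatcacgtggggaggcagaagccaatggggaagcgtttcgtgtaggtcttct
XBP1 holds ERSE from -52 to -34, HSPA5 from -66 to -48, and HERPUD1 holds ERSE-II from -117 to -107, counted from the start. The DNAJB9 window has neither in these letters. The same holds for EIF2AK3, MANF and SYVN1, which, like DNAJB9, rose in A549 at 6 h.

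ERSE was found in 7 of the 36 windows (19.4%) and in 22 of all 27305 windows of the same length (0.0806%). The 7 were XBP1, HSPA5, HSP90B1 (at 2 places), CRELD2, ERO1LB, CALR and CANX. Of these, HSPA5 rose in A549 at 6 h and XBP1 in H1975 at 24 h. The others passed in no drug comparison in the fit of all 24 arrays without a block. With the third base of the second block left free (CCNCG), so that ERSE is included, 10 windows matched (27.8%, against 0.392% of all), the added ones being HYOU1, SDF2L1 and WFS1. ERSE-II was found in HYOU1 (at 2 places), SDF2L1 and HERPUD1, 3 windows or 8.33%, against 0.0549% of all. In SDF2L1 the ERSE-II match overlapped the ERSE match with the free base. The core of the unfolded protein response element, TGACGTGG, was in HYOU1, DNAJC10 and TXNDC11 (8.33%, against 0.795% of all), and in HYOU1 it overlapped an ERSE-II match. The amino acid response element, which the ATF4 arm uses, was searched only as TGATGNAAT, with its last base fixed to T. In these letters it was in 0 of the 36 windows and in 1.02% of all. Windows were not searched with that base free. On the minus strand the printed HERPUD1 window matches these letters except for the last base, so the search does not show that members lack the element. These matches describe the letters of the windows only, and no binding was measured.

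Before the drug comparisons, the A549 arrays of replicate 3 at 24 h have to be set apart. Both arrays of that pair carry the same date in their names, and arrays that share a date are called a run here. The Pirfenidone array lay below the PBS array for 39 of the 40 genes. The median difference was -0.57, and only DERL3 was higher. In the other 2 pairs of that comparison the median differences were 0.35 (40 of 40 higher) and 0.46 (34 of 40 higher). HERPUD1 shows the pattern: the PBS array of replicate 3 read 4.85 against 3.84 and 4.01, and the Pirfenidone array read 3.83 against 4.43 and 4.66. The 2 arrays therefore go against the direction of the other pairs. An exchange of their labels would turn the sign of this pair and was not tested, so they are kept as labelled. The main A549 results of the members at 24 h are given with and without them. The 3 runs of A549 at 6 h had medians of 0.44, 0.46 and 0.36. Those of H1975 had 0.10, 0.27 and 0.20 at 6 h, while the 24 h runs had 0.22, 0.26 and 0.24.

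**Figure D1:**
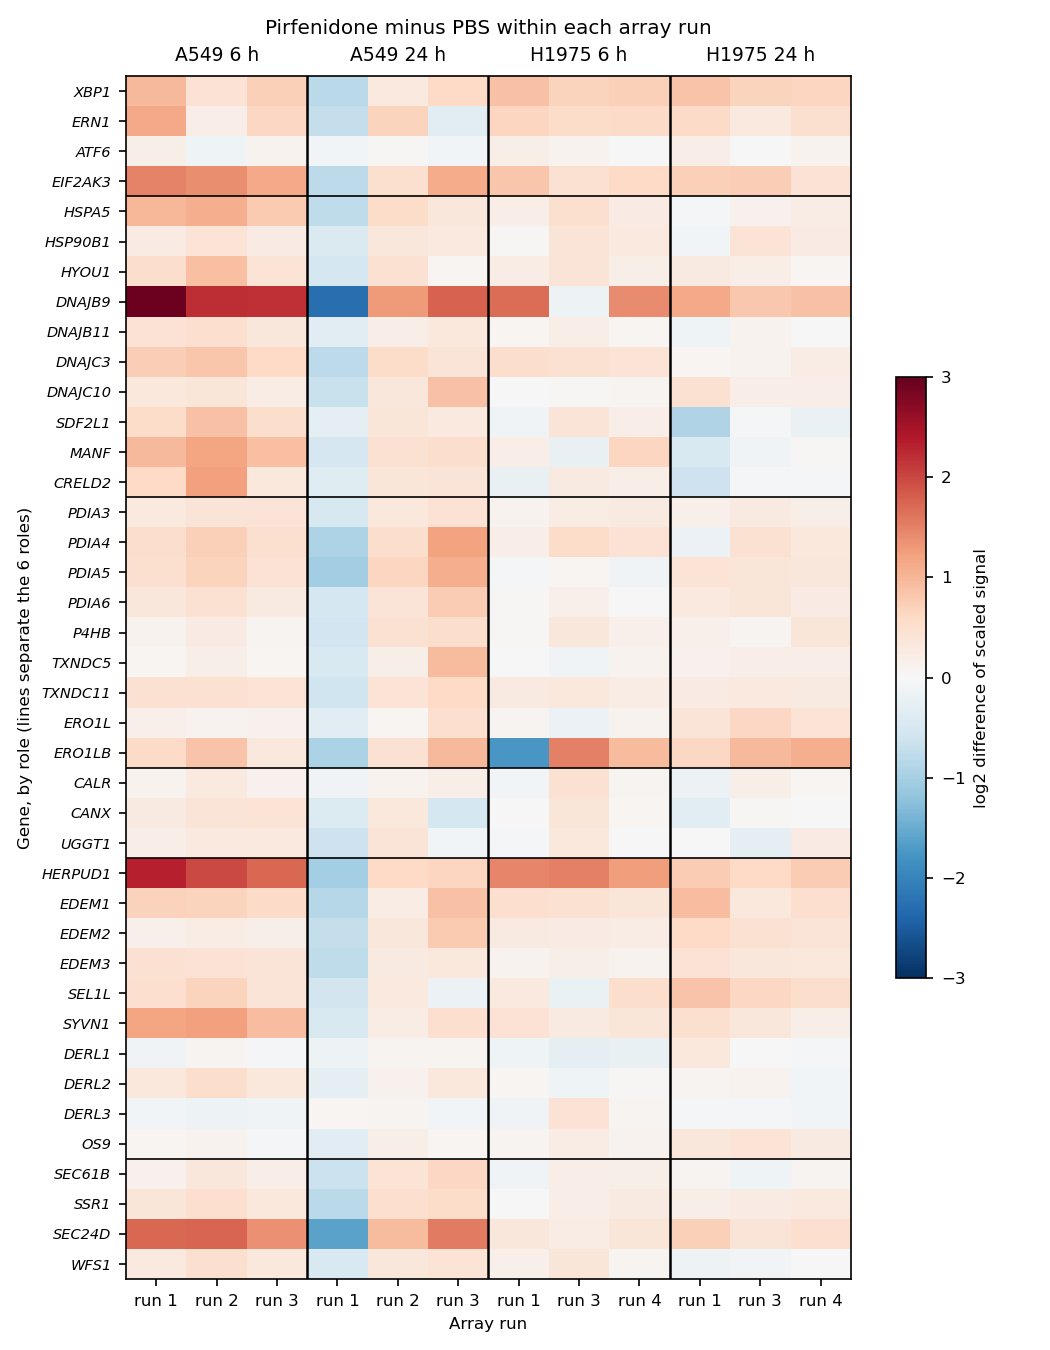
Difference in log2 signal between the Pirfenidone and the PBS array of the same run (same date in the array names), for each of the 40 genes (rows, grouped by role) in each run of the 4 drug comparisons (columns), with color from blue (lower with Pirfenidone) to red (higher), on a scale from -3 to 3. The A549 6 h columns are red for 37 or 38 of 40 genes, and the A549 24 h column of replicate 3 is blue for 39 of 40.

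In A549 at 6 h, 38 of the 40 genes had a higher mean with Pirfenidone than with PBS, with a median change of 0.43 on the log2 scale against -0.01 over all tested probes. The 3 Pirfenidone arrays all lay above the 3 PBS arrays for 28 genes (7.03% of all probes) and below them for none. Of the members 6 rose (HERPUD1, EIF2AK3, MANF, HSPA5, SYVN1 and DNAJB9) at a limma adjusted p of 0.05 or less, against 0.218% of all probes that rose, and 5 of them by at least 2-fold, against 0.118%. At an unadjusted p under 0.05, 24 genes were higher (3.1% of all probes) and 0 lower (2.91%). The count of 5 fell to 1 without PBS replicate 3 or Pirfenidone replicate 3, to 2 without PBS replicate 1 or 2 or Pirfenidone replicate 1, and to 3 without Pirfenidone replicate 2. Because RNA came from whole cultures, more cells that carry a transcript and more transcript per cell cannot be told apart.

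In A549 at 24 h the median change was 0.08 and 32 of 40 means were higher, but 0 members passed limma's test in either direction (0.0042% of all probes rose by either rule) and 0 had an unadjusted p under 0.05 (0.953% of all probes). No gene had all 3 Pirfenidone arrays above all 3 PBS arrays, where 0.562% of all probes did. The count was also 0 by the methods' t-test. With the run as a block it stayed 0 (0.0126% of all probes rose). Without both arrays of replicate 3 the median was 0.41, 37 of 40 means were higher, and 1 gene, PDIA5, rose (0.021% of all probes). With run as a block as well, 17 rose (2.5% of all probes): EIF2AK3, HSPA5, DNAJB9, DNAJC3, DNAJC10, PDIA3, PDIA4, PDIA5, PDIA6, P4HB, TXNDC11, HERPUD1, EDEM2, SEC61B, SSR1, SEC24D and WFS1.

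In H1975 at 6 h, 36 of 40 means were higher with Pirfenidone, with a median of 0.19 against 0.05 over all probes. The groups were apart and higher for 10 genes, against 10.6% of all probes. HERPUD1 was the only member that rose at an adjusted p of 0.05 or less in the limma fit (1.04% of all probes rose) and it did so by more than 2-fold (0.399%). In H1975 at 24 h the median was 0.20, against 0.02 over all probes, with 32 means higher. The groups were apart and higher for 15 genes (16.3% of all probes) and apart and lower for 2, SDF2L1 and CRELD2 (15.6%). XBP1 alone rose (2.91% of all probes), by less than 2-fold, so 0 members passed both criteria where 0.89% of all probes did. At an unadjusted p under 0.05, 9 were higher there (11.1% of all probes) and 1 lower (10.8%).

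Array runs were entered as a block in a further fit. With it, 10 members rose in A549 at 6 h (0.911% of all probes), the added ones being HYOU1, DNAJB11, SDF2L1 and SEC24D. XBP1 and HERPUD1 rose in H1975 at 6 h (4.49%). At 24 h in that line XBP1, ERO1L, HERPUD1, SEL1L and OS9 did (11.7%). Leaving out the 2 A549 24 h arrays of replicate 3 also lowered the spread shared by all comparisons. Then 10 members rose in A549 at 6 h (0.516% of all probes), and in H1975 4 at the early time (1.56%) and 9 at the late time (5.4%). With both changes 23 (2.82%), 7 (8.38%) and 18 (17.8%) rose, and none fell. That pair was singled out from earlier results of these data, and the fits with both changes were added after the values were seen.

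**Figure D2:**
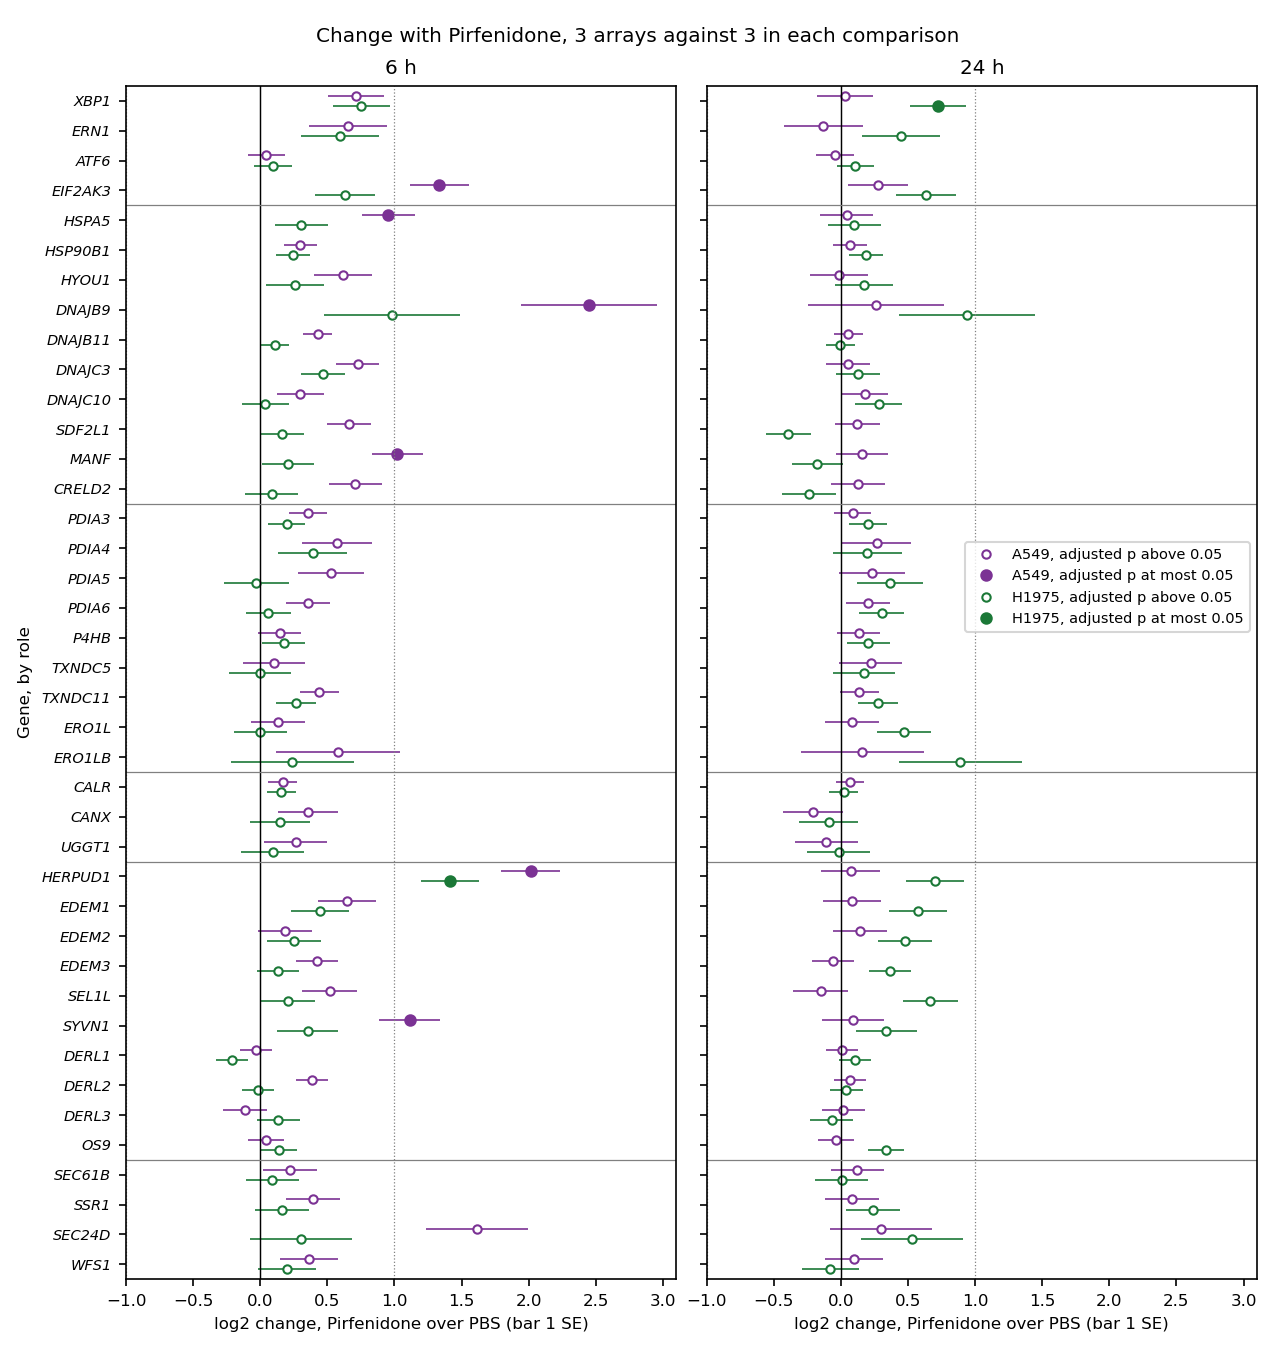
Log2 change with Pirfenidone against PBS for each of the 40 genes (rows, grouped by role) in the 4 comparisons, from 1 limma fit of all 24 arrays, with bars for the standard error and filled points for an adjusted p of 0.05 or less. HERPUD1 and DNAJB9 are farthest to the right in A549 at 6 h, at 2.02 and 2.45, and no point is filled in A549 at 24 h.

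The sensors come first. EIF2AK3 encodes PERK, and its probe lies at chr2:88856582-88856641 (hg19, as the array files give it). After 6 h in A549 its log2 signal was -2.33, -2.35 and -2.68 with PBS and -0.95, -1.21 and -1.20 with Pirfenidone. The groups did not overlap, and EIF2AK3 rose by 1.34 (SE 0.22, 2.52-fold, limma adjusted p = 0.00887). The call was lost without PBS replicate 3 (adjusted p = 0.0701) or Pirfenidone replicate 3 (0.0537). In A549 at 24 h EIF2AK3 read -2.44, -2.72 and -1.96 with PBS and -1.96, -1.60 and -2.73 with Pirfenidone, so the third replicate held both the highest PBS value and the lowest drug value. The change was 0.28 with that pair and 0.80 without it (adjusted p = 0.107). In H1975 it read -2.29, -2.05 and -2.02 with PBS and -1.60, -1.42 and -1.45 with Pirfenidone at 6 h. At 24 h in that line it read -2.33, -1.93 and -2.26 with PBS and -1.59, -1.5 and -1.54 with Pirfenidone. All drug arrays of H1975 stood above the PBS arrays at both times, with changes of 0.63 and 0.63 (SE 0.22) that did not pass (adjusted p = 0.23 and 0.0959).

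XBP1, the factor whose mRNA IRE1 splices, has its probe at chr22:29190733-29190792, and the files do not say which splice forms it reads. In H1975 at 24 h XBP1 read 4.01, 4.0 and 3.64 with PBS and 4.67, 4.65 and 4.49 with Pirfenidone. The groups were apart, and XBP1 rose by 0.72 (SE 0.21, 1.65-fold, adjusted p = 0.0467), a call that was lost when any 1 of these 6 arrays was left out (highest adjusted p 0.154). At 6 h in H1975 the values were 3.70, 4.14 and 4.11 with PBS and 4.80, 4.82 and 4.59 with Pirfenidone, again apart, with a change of 0.75 (adjusted p = 0.095). In A549 at 6 h they were 3.5, 3.17 and 2.94 with PBS and 3.94, 3.89 and 3.93 with Pirfenidone, a change of 0.71 (adjusted p = 0.273). Groups did not overlap there either, while in A549 at 24 h they did: 3.26, 3.40 and 4.15 with PBS and 3.56, 4.0 and 3.35 with Pirfenidone. The 24 h change in A549 was 0.03, and 0.45 without replicate 3 (adjusted p = 0.537).

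ERN1, the gene of IRE1, was dim, above background on 19 of 24 arrays. Every H1975 array was above background, and the arrays that were not are all of A549. ERN1 was thus tested through H1975, and its A549 values lie near background. In H1975 it read -6.24, -6.35 and -6.29 with PBS and -5.80, -5.71 and -5.59 with Pirfenidone at 6 h. At 24 h the H1975 values were -6.36, -6.35 and -6.38 with PBS and -6.06, -5.87 and -5.80 with Pirfenidone. The groups were apart at both times, by 0.59 and 0.45 (adjusted p = 0.478 and 0.406). In A549 ERN1 overlapped between groups at 6 h, with -6.54, -7.25 and -6.80 against -6.35, -6.62 and -5.67, and at 24 h. ATF6, the sensor that becomes a transcription factor itself, changed by 0.05 and -0.04 in A549 and by 0.09 and 0.11 in H1975 at the earlier and the later time (SE 0.14 each), and none of these passed. Of the 4 sensor and factor genes, then, EIF2AK3 passed in the 6 h comparison of A549 and XBP1 in the 24 h comparison of H1975. XBP1 changed by much the same amount at 6 h in both lines without passing. No line or time difference of the drug change passed for either gene.

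Among the 10 genes of BiP, its partners and secreted chaperone targets, 3 rose in A549 at 6 h (0.218% of all probes) and none fell in any of the 4 drug comparisons. HSPA5 encodes BiP, the main Hsp70 chaperone of the ER, which also holds the sensors inactive, and its probe is at chr9:127997149-127997208. With 6 h of treatment A549 gave HSPA5 values of 1.25, 1.41 and 0.96 with PBS and 2.33, 2.20 and 1.95 with Pirfenidone, with every drug array above every PBS array. It rose by 0.95 (SE 0.20, 1.94-fold, adjusted p = 0.0403), and this call was lost when any 1 of these 6 arrays was left out (highest adjusted p 0.264). A549 at 24 h gave HSPA5 values of 1.13, 1.34 and 1.65 with PBS and 1.69, 1.67 and 0.89 with Pirfenidone. The groups overlapped, and the change was 0.04, or 0.44 without replicate 3 (adjusted p = 0.485). In H1975 it was 1.05, 0.85 and 0.83 with PBS and 1.32, 1.09 and 1.25 with Pirfenidone at 6 h, where the groups were apart but the change of 0.31 did not pass (adjusted p = 0.654). The later H1975 samples read 0.61, 0.48 and 0.97 with PBS and 0.74, 0.69 and 0.92 with Pirfenidone, which overlapped.

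DNAJB9, a J-domain cochaperone of BiP that is a classical XBP1 target, has its probe at chr7:108214515-108214574. A549 at 6 h gave 0.74, 0.87 and 0.22 with PBS and 2.95, 3.07 and 3.15 with Pirfenidone. The groups were wide apart, and DNAJB9 rose by 2.45 (SE 0.51, 5.45-fold, adjusted p = 0.0424), the highest mean change of the 40 genes in any drug comparison. That call, too, was lost without any 1 of the 6 arrays, with changes from 2.25 to 2.58 (highest adjusted p 0.245). In A549 at 24 h the PBS arrays read 0.59, 0.81 and 2.76 and the Pirfenidone arrays 1.87, 2.57 and 0.50, so that replicate 3 held both the highest PBS and the lowest drug value. Without that pair the change was 1.52 (adjusted p = 0.176), against 0.26 with it. In H1975 at 6 h DNAJB9 read 0.22, 0.59 and 0.59 with PBS and 0.45, 2.0 and 1.90 with Pirfenidone, the first drug array lying within the PBS range and the other 2 far above it. At 24 h in H1975 the values were 0.48, 0.34 and 0.18 with PBS and 1.29, 1.21 and 1.32 with Pirfenidone, fully apart, and the change of 0.94 did not pass (adjusted p = 0.292).

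MANF, a secreted factor kept in the ER with BiP, rose in A549 at 6 h. Its probe at chr3:51426687-51426746 read 4.18, 4.23 and 4.19 with PBS and 5.36, 5.13 and 5.16 with Pirfenidone. That is a change of 1.02 (SE 0.19, 2.03-fold, adjusted p = 0.0206) with the groups apart, lost without any 1 of the 6 arrays (highest adjusted p 0.105). In H1975 MANF changed by 0.21 at 6 h and -0.17 at 24 h, and in A549 at 24 h by 0.16, or 0.49 without replicate 3, and none of these passed. The other BiP partners in A549 at 6 h were all higher with the groups apart: DNAJC3, a cochaperone that also inhibits PERK, by 0.72 (adjusted p = 0.0707), CRELD2 by 0.71, SDF2L1 by 0.66, the BiP exchange factor HYOU1 by 0.62, DNAJB11 by 0.43, DNAJC10 by 0.30 and HSP90B1, the HSP90 chaperone of the ER, by 0.30. None of these 7 passed. In H1975 at 24 h SDF2L1, at -0.39, and CRELD2, at -0.24, were the members with all drug arrays below all PBS arrays, and neither passed (adjusted p = 0.17 and 0.547).

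After 6 h, 2 of the 10 ERAD genes rose in A549 (0.218% of all probes) and 1 in H1975 (1.04%). HERPUD1, a stress-induced ER membrane protein that gathers the ubiquitin ligase complex of ERAD, has its probe at chr16:56977700-56977759 and was the only member that rose in both lines in the fit of all 24 arrays without a block. HERPUD1 in A549 at 6 h read 4.04, 4.29 and 3.85 with PBS and 6.01, 6.03 and 6.19 with Pirfenidone. The lowest drug array lay far above the highest PBS array, and HERPUD1 rose by 2.02 (SE 0.22, 4.04-fold, adjusted p = 0.000335). In H1975 at 6 h it read 3.5, 3.74 and 3.86 with PBS and 5.25, 5.12 and 4.97 with Pirfenidone, again apart, a rise of 1.41 (SE 0.22, 2.66-fold, adjusted p = 0.00206). At 24 h in H1975 the values were 3.88, 3.75 and 3.66 with PBS and 4.46, 4.51 and 4.42 with Pirfenidone, still apart, but the change of 0.70 did not pass (adjusted p = 0.0617). In A549 at 24 h the PBS arrays read 3.84, 4.01 and 4.85 and the drug arrays 4.43, 4.66 and 3.83, with a mean change of 0.07, and of 0.62 (adjusted p = 0.181) without replicate 3. Both 6 h calls held when any 1 of the arrays compared was left out.

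SYVN1, the ubiquitin ligase of that complex (also called HRD1), rose in A549 at 6 h. Its probe at chr11:64894999-64895058 read 1.64, 1.25 and 1.34 with PBS and 2.88, 2.16 and 2.53 with Pirfenidone, with no overlap. The rise was 1.11 (SE 0.23, 2.16-fold, adjusted p = 0.0403), and with 1 of these 6 arrays left out it passed only without Pirfenidone replicate 2 (highest adjusted p 0.213). SEL1L, the partner that keeps SYVN1 in its complex, changed by 0.52 in A549 at 6 h and by 0.67 in the later H1975 samples. In the latter it read -0.32, -0.18 and -0.55 with PBS and 0.30, 0.36 and 0.30 with Pirfenidone, apart but just short of the threshold (adjusted p = 0.0602). Dimmer SEL1L probes changed less there, by 0.28 and 0.46 (limma adjusted p = 0.556 and 0.13). The mannosidase-like EDEM1, EDEM2 and EDEM3, which mark glycoproteins for disposal, stood apart in H1975 at 24 h as well, at 0.57, 0.48 and 0.36, and so did the lectin OS9, at 0.34, and none passed. The derlins, membrane proteins of the retrotranslocation channel, gave no call: in A549 at 6 h DERL1 changed by -0.03, DERL2 by 0.39 and DERL3 by -0.11, and DERL1 and DERL3 were the 2 members with a lower mean there.

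The 9 disulfide isomerases and oxidases gave no call in the 4 drug comparisons, and all 9 means were higher with Pirfenidone in A549 at 6 h, where their median change was 0.36. ERO1LB changed by 0.58 there, PDIA4 by 0.57, PDIA5 by 0.53, TXNDC11 by 0.44, PDIA3 by 0.36 and PDIA6 by 0.36, each with the groups apart. P4HB, the classical protein disulfide isomerase, and TXNDC5 overlapped at 0.14 and 0.10. ERO1L, an oxidase that passes electrons from the isomerases to oxygen, differed little at 6 h in either line (0.13 in A549 and 0.00 in H1975). At 24 h in H1975 it read 1.99, 2.23 and 2.66 with PBS and 2.61, 2.64 and 3.05 with Pirfenidone, 2 overlapping groups and a change of 0.47 (adjusted p = 0.172) that passed with run as a block (adjusted p = 0.0115). PDIA5 in A549 at 24 h read 1.18, 1.08 and 2.32 with PBS and 1.82, 2.17 and 1.29 with Pirfenidone. The third replicate ran opposite to the others, and without that pair PDIA5 rose by 0.86 (SE 0.15, adjusted p = 0.0471).

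None of the 3 lectin chaperone genes passed in a drug comparison. CALR and CANX, the chaperones calreticulin and calnexin that bind newly made glycoproteins, changed by 0.17 and 0.35 in A549 at 6 h, and UGGT1, the glucosyltransferase that returns unfolded glycoproteins to them, by 0.26. In H1975 at 24 h the 3 lay between -0.09 and 0.02.

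SEC24D, a coat protein of vesicles that leave the ER, had the third highest mean change in A549 at 6 h. The PBS arrays read -1.14, -0.94 and -1.43 and the Pirfenidone arrays 0.61, 0.43 and 0.29 at chr4:119644538-119644597. No drug array overlapped the PBS arrays, and the change of 1.61 (SE 0.38) missed the threshold (adjusted p = 0.0866). In A549 at 24 h SEC24D read -1.09, -0.97 and 0.35 with PBS and -0.14, 0.59 and -1.26 with Pirfenidone, with replicate 3 opposite to the others and a change of 1.25 without it. In H1975 SEC24D differed by 0.31 at 6 h and 0.53 at 24 h. The other 3 genes of translocation and the ER membrane were SEC61B, a subunit of the translocation channel, SSR1, of the complex beside it, and WFS1, a membrane protein of calcium balance, and they changed by 0.22, 0.39 and 0.37 in A549 at 6 h, none past the test.

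**Figure D3:**
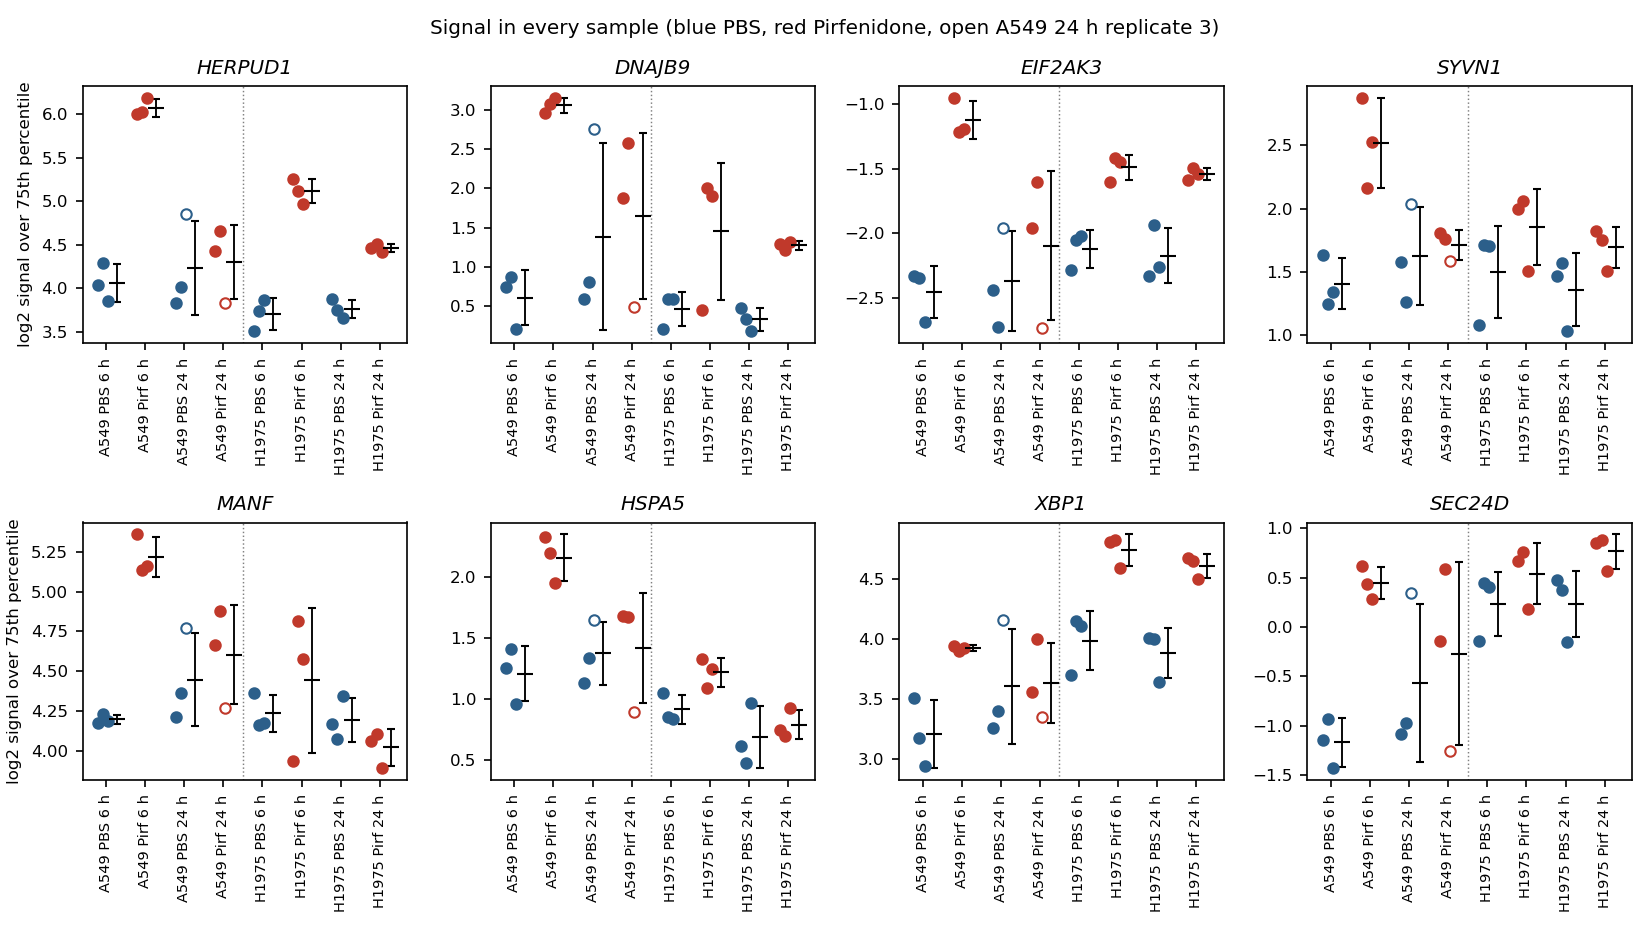
Log2 signal relative to the array's 75th percentile (y axis) in each of the 24 samples for members that the results turn on (1 panel a gene), with the 8 groups of line, time and treatment on the x axis, 1 point a sample and a bar at the group mean. HERPUD1 with Pirfenidone at 6 h sits between 6.01 and 6.19 in A549 and between 4.97 and 5.25 in H1975, above every PBS sample of the same line and time.

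Whether the drug changed the genes differently in the 2 lines was tested directly, as the H1975 change minus the A549 change. At 6 h 34 of the 40 differences were negative, with a median of -0.22 against 0.05 over all probes. None passed in limma (0.0378% of all probes passed), and 8 had an unadjusted p under 0.05, all of them negative (0.776% of all probes were so): MANF at -0.81 (SE 0.27, adjusted p = 0.951), SEC24D, SYVN1, EIF2AK3, HSPA5, CRELD2, SDF2L1 and DERL2. DNAJB9 had the lowest difference, -1.46 (SE 0.72), and HERPUD1 -0.60 (SE 0.31). Without the A549 24 h pair and with run as a block, HSPA5, PDIA5, SYVN1 and SEC24D passed, each a smaller change in H1975 (0.302% of all probes). At 24 h 0 members passed (0.239% of all probes), 2 were positive (6.47%) and 1 negative (5.72%) at an unadjusted p under 0.05, and the highest was SEL1L at 0.82 (SE 0.29, adjusted p = 0.24). Dimmer SEL1L probes gave 0.38 and 0.41. Without the A549 pair the median of the 24 h differences went from 0.12 to -0.17, a change of sign.

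The change with time was tested as the 24 h change minus the 6 h change. In A549 HERPUD1 passed, at -1.94 (SE 0.31, adjusted p = 0.0453), where 0.021% of all probes fell in the same sense. With 1 of the 12 arrays left out it lay between -2.14 and -1.63 and passed in 4 of 12 fits (highest adjusted p 0.159), those without PBS replicate 1 or 3 at 24 h, Pirfenidone replicate 1 at 6 h or Pirfenidone replicate 2 at 24 h. Without both arrays of replicate 3 at 24 h it was -1.40 (SE 0.20, adjusted p = 0.0243). DNAJB9 had a difference of -2.19 (SE 0.72, adjusted p = 0.894), and 13 genes were lower at 24 h at an unadjusted p under 0.05, against 1.99% of all probes. The median difference in A549 was -0.35 with the pair and -0.08 without it. In H1975 0 members passed (0.00839% of all probes fell), the median was -0.01, and HERPUD1 and SDF2L1, at -0.71 and -0.55, had an unadjusted p under 0.05 (4.01% of all probes were lower so). Without the A549 pair and with run as a block HERPUD1 passed in H1975 too, with the smaller change at 24 h (2.06% of all probes were lower so).

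The lines also differed without drug. With PBS, 22 of the 40 genes differed between H1975 and A549 over 6 arrays a line (limma adjusted p of 0.05 or less): 9 were higher in H1975, against 37.4% of all probes, and 13 lower, against 32.8%. Without both A549 24 h arrays of replicate 3, 25 differed, 13 higher (37.2% of all probes) and 12 lower (32.3%), with ERN1, EIF2AK3, PDIA5 and SSR1 added and CANX lost. ERN1 was not well above background on every A549 PBS array. At 2-fold or more the count was 3 with all arrays, against 33.3% of all probes in either direction. Each of the 7 slides held 1 line, while 2 of the 4 runs held both. With run as a block 21 of the 22 still passed (TXNDC11, adjusted p = 0.0531, did not), and all 22 had the same sign within each of the 2 shared runs. The size could differ, with the run that holds A549 replicate 3 giving the smaller or the larger value. It gave 0.006 for WFS1, 0.12 for XBP1 and -0.97 for EDEM2, and the other shared run 0.66, 0.79 and -0.32. With slide as a random block 18 passed, without TXNDC11, CRELD2, PDIA6 and HERPUD1. In H1975 ERO1L was higher by 1.26 (SE 0.14, 2.39-fold, adjusted p = 1.83e-07) and SEC24D by 1.1 (SE 0.27, 2.15-fold, adjusted p = 0.00122). Within the 2 shared runs ERO1L differed by 1.32 and 1.25, and SEC24D by 0.39 in the run that holds A549 replicate 3 and by 1.42 in the other. ERO1L read 1.02, 0.92 and 1.21 at 6 h and 1.01, 0.80 and 1.42 at 24 h in A549, and 2.61, 2.23 and 2.21 at 6 h and 1.99, 2.23 and 2.66 at 24 h in H1975, with no overlap between the lines.

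ERO1LB, its paralog of secretory cells, went the other way. With PBS it read -4.26, -4.22 and -4.09 at 6 h and -4.13, -4.33 and -3.25 at 24 h in A549, all above background. In H1975 it was not well above background on any of the 6 PBS arrays, where it read -7.37, -8.27 and -8.18 at 6 h and -8.19, -8.42 and -8.89 at 24 h. ERO1LB was at least 9.72-fold higher in A549, by a bound that was not tested. It sets the A549 mean against the lowest signal among probes well above background on each H1975 array, or the probe's own if higher. The limma adjusted p of 8.74e-10 belongs to the measured difference of -4.18, with H1975 signals not well above background. ERO1LB was a tested probe through the A549 groups only.

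Of the sensors and factors, ATF6 was higher in H1975 by 0.74 and XBP1 by 0.53, and the chaperone partners HYOU1 by 0.64, DNAJB11 by 0.53 and CRELD2 by 0.40. WFS1, at 0.43, and CALR, at 0.30, were the others that were higher. Lower in H1975 were HSP90B1 (-0.81) and HSPA5 (-0.49), the isomerases P4HB (-0.54), PDIA6 (-0.38) and TXNDC11 (-0.26), and the lectin chaperone genes UGGT1 (-0.50) and CANX (-0.37). By the brightest probe, 5 of the 10 ERAD genes were lower in H1975 (32.8% of all probes) and none higher (37.4%). Those lower were DERL3 (-0.89), DERL2 (-0.72), EDEM1 (-0.63), EDEM2 (-0.49) and HERPUD1 (-0.41). Of the 15 other tested probes of members, 8 passed in this comparison and 12 had the sign of the brightest. The tested probes of SSR1 disagreed: the brightest gave 0.20 and a dimmer probe -1.42. Dimmer probes of SEL1L passed as higher in H1975, at 0.52 and 0.50 (limma adjusted p = 0.0109 and 0.00165), where the brightest, at 0.25, did not. A dimmer TXNDC5 probe also passed, at 0.86 (adjusted p = 1.13e-05), against 0.30 for the brightest, which did not.

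**Figure D4:**
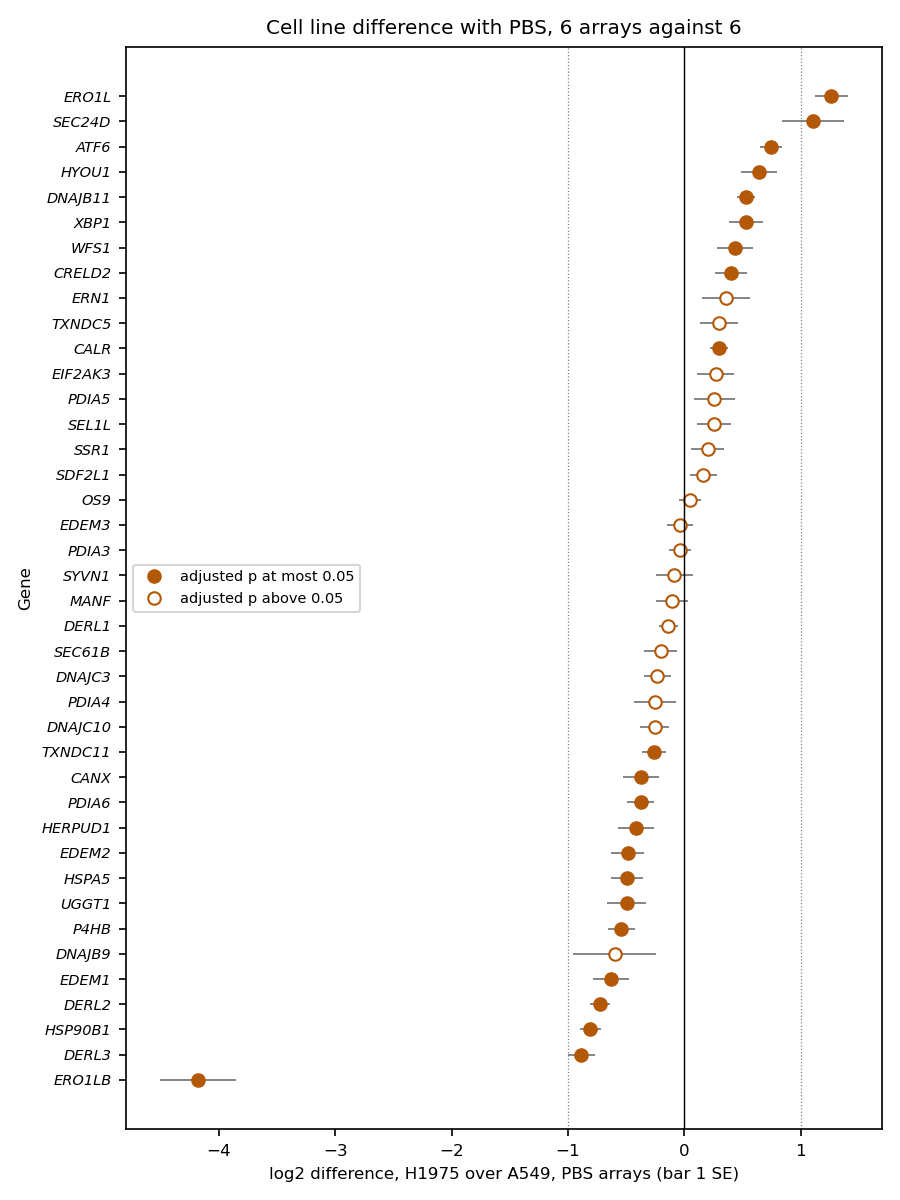
Log2 signal of H1975 minus A549 with PBS for each of the 40 genes (rows, in order of the difference), with bars for the standard error, from 6 PBS arrays a line, and filled points for an adjusted p of 0.05 or less. ERO1LB lies far to the left, where its H1975 value is not well above background, and ERO1L and SEC24D lie farthest to the right, at 1.26 and 1.1.

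Time alone, between PBS arrays at 24 h and 6 h, gave 0 calls among the members in either line by limma (0.134% of all probes passed in A549 and 0.663% in H1975). At an unadjusted p under 0.05 there were 0 in A549 (8.49% of all probes) and 1 lower in H1975, DERL1 at -0.25 (4.04%). DERL1 passed with run as a block and the A549 24 h pair left out (4.94% of all probes were lower so). In A549 39 of the 40 means were higher at 24 h, with a median of 0.19, and without both replicate 3 arrays at 24 h 25 were, with a median of 0.02.

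A total of 12 members had other tested probes, 15 in all. All 15 had the sign of the brightest probe in A549 at 6 h and 10 at 24 h. In H1975 it was 13 and 11, and none of the 15 passed in a drug comparison. HERPUD1, DNAJB9, EIF2AK3, MANF, SYVN1, HSPA5, XBP1 and SEC24D each rest on a lone tested probe.

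Other genes of the pathway were read from lists made for this description. Of 10 genes of the PERK-ATF4 arm, 3 rose in A549 at 6 h (0.218% of all probes). They were DDIT3, the factor CHOP, by 2.19, CHAC1, which degrades glutathione, by 2.29 and the pseudokinase TRIB3 by 1.24. In H1975 6 of the 10 rose at 6 h (1.04% of all probes) and 7 at 24 h (2.91%), and none fell. The changes there were 3.20 and 2.77 for CHAC1, 2.08 and 1.71 for DDIT3 and 0.75 and 0.69 for ATF4 itself. The median change of that list was 0.88 in A549 at 6 h, against 0.43 for the 40 members. For H1975 the list had 1.01 at 6 h and 1.22 at 24 h, against 0.19 and 0.20. In A549 at 24 h 0 of 10 passed, with or without replicate 3 (0.0126% and 0.0588% of all probes). The Pirfenidone array was higher there than the PBS array of the same replicate number for 6, 6 and 2 of the 10. With the A549 24 h pair of replicate 3 kept, 2 of the 10 had a larger change in H1975 than in A549 at 24 h (0.197% of all probes). These were CHAC1, by 3.08 (SE 0.51, limma adjusted p = 0.012), and ASNS, asparagine synthetase, by 2.02 (SE 0.29, adjusted p = 0.00378). In that pair the median difference of the list, Pirfenidone minus PBS, was -0.59, against 0.06 and 0.28 in replicates 1 and 2. These 2 line differences were not read without the pair.

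Among 31 other ER folding and degradation genes, CREB3L4, an ER-bound factor akin to ATF6, was the only one that rose, and none fell with the drug. At 6 h CREB3L4 rose by 0.53 in A549 (limma adjusted p = 0.00619, 0.218% of all probes) and by 0.89 in H1975 (adjusted p = 2.51e-05, 1.04%). Of 31 genes of ER translocation, glycosylation and retrieval, 0 passed in the 4 drug comparisons, and their median change in A549 at 6 h was 0.18. Without the A549 24 h pair and with run as a block, 6 and 12 genes of these 2 lists rose in A549 at 24 h (2.5% of all probes). Without that pair and with no block, 0 genes of either list rose there (0.021% of all probes).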

How the data were processed

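RNA of 24 samples, 3 in each of 8 groups taken from the sample labels, was measured on one-color Agilent arrays. The deposited scanner files hold spot intensity, made by the authors with Agilent Feature Extraction, which subtracts background and marks outlier, background and saturated spots, and the probe annotation in them is on hg19. The authors also deposited a table of log2 values, centered per probe, whose differences between arrays match the scanner values (r of 1). Column medians in it lay between -0.163 and 0.156, and it was used as an alternative.

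From the processed signal of each array, the log2 was taken and the 75th percentile over the 43118 spots other than controls was subtracted. Spots marked as outliers were dropped, and the spots of a probe were averaged. On each array a probe counted as well above background where 0.5 or more of its spots did, and 23827 of 34127 probes were so on all 3 arrays of at least 1 group and were tested. Tests were run with limma 3.58.1 in R 4.3.3 (lmFit and eBayes), in a joint fit of the 8 groups (residual degrees of freedom: 16), with Benjamini-Hochberg adjustment over all tested probes. A gene rose or fell at an adjusted p of 0.05 or less, and a call for the counts in the closing section also needed a change of 2-fold. The number of arrays limits the precision. The limma fit and the rule for calls were tested on simulated data, for the drug comparison of A549 at 6 h only.

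The date in the array names gave 4 runs, and the slide number in them gave 7 slides. Run was entered as a block in alternative fits, within cell line for the drug comparisons and across both lines for the PBS contrast. Replicate numbers were not taken as pairs, since same-numbered samples did not vary together in every comparison. The 40 members, the lists of 81 further ER and PERK-ATF4 arm genes and markers and the alternatives were chosen with earlier results of these data known. The text names the members called in a comparison, the sensors, and members singled out after their values were seen. Alternatives were another background correction, quantile normalization, the authors' values, other filters on dim probes, replicate, run and slide blocks, only the arrays compared, no fold limit, Holm adjustment, the mean of a gene's probes, the methods' t-test and leaving out arrays. The study's family-wise permutation test was not run, since 3 against 3 samples allow no p below 0.1 per gene in an exact permutation test.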

Additional observations from a re-analysis of the deposited data

Results flagged for a closer look

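The change of HERPUD1 with Pirfenidone in A549 differed between the 2 times, at -1.94 on the log2 scale for 24 h minus 6 h (SE 0.31, limma adjusted p = 0.0453). It was higher with the drug in 3 of 3 runs at 6 h and in 2 of 3 at 24 h, and without both 24 h arrays of replicate 3 the difference was -1.40 (adjusted p = 0.0243).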

How the results depend on the processing

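No called value changed direction. The median line difference at 24 h, which was not called, went from 0.12 to -0.17 without both A549 24 h arrays of replicate 3, and the A549 24 h median, 0.08, lay below 0 in 2 of 6 fits with 1 array left out, those without PBS replicate 1 or Pirfenidone replicate 2. The 5 members called in A549 at 6 h became 2 with normexp background correction, 3 with no filter on dim probes, 0 with only the arrays compared, 1 with Holm adjustment and 0 by the methods' t-test after Benjamini-Hochberg adjustment, and 1 to 3 with 1 array left out. The 1 call in H1975 at 6 h became 0 with only the arrays compared, with Holm adjustment and by the methods' t-test after adjustment. The 0 calls in A549 at 24 h became 2 with run as a block and both arrays of replicate 3 left out, and the 0 in H1975 at 24 h became 1 with no fold limit. The 1 call of the time difference in A549 became 0 with normexp, with no filter, with the replicate block, with the slide block, with only the arrays compared, with Holm adjustment and with the mean of a gene's probes, and was 0 to 1 with 1 array left out. The 3 calls between the lines with PBS became 22 with no fold limit and were 2 to 3 with 1 array left out. The median change in H1975 at 24 h, 0.20, became 0.17 with normexp, 0.25 with quantile normalization and 0.16 with the authors' values. With 1 array left out the A549 medians lay between 0.366 and 0.476 at 6 h and -0.0219 and 0.286 at 24 h, those of H1975 between 0.120 and 0.256 at 6 h, and later between 0.179 and 0.285. The cause of these shifts was not tested.

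Drug and PBS samples with the same replicate number shared a run except in H1975 at 6 h, and did not vary together there (r of -0.476, 0.43 and -0.677), where arrays of the same run did (0.824, 0.5 and 0.696). For A549 at 24 h, where replicate number and run coincide, r was 0.395, 0.0815 and -0.101 for replicates 1, 2 and 3. With the replicate block 4 members were called in A549 at 6 h and 0 at 24 h, and for H1975 1 at 6 h and 0 at 24 h. The PBS contrast between lines cannot be estimated with a block of replicate within line, and gave 2 calls with run across both lines as a block and 3 with slide as a random block, both chosen after seeing the data. Dim signals of ERN1 and ERO1LB limit what was measured there.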
